A study of Mus musculus with 6 samples.

Results

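The 10 genes described here encode feedback inhibitors of the mitogen-activated protein kinase (MAPK) pathways. They are the dual-specificity phosphatase genes Dusp1, Dusp2, Dusp4, Dusp5, Dusp6, Dusp10 and Dusp16, and Spry1, Spry2 and Spred1 of the Sprouty and Spred families. The genes were chosen by name, with earlier results of these data known. All 10 were found among the 29393 genes of the count table. They were measured in C57BL/6 mouse double negative T cells converted from CD4+ T cells (cDNT), which the methods of the study describe as converted in vitro. Of the 6 libraries, 3 came from cells kept for 24 h with IL-10 at 50 ng/ml (W/ IL-10) and 3 from cells given no IL-10 (W/O IL-10). The methods state that anti-CD3/CD28 antibodies were present together with IL-10, whereas the sample labels do not mention them, and neither source says that the controls received them. The labels give adult animals, spleen as the tissue and sorting before the stimulation. The comparison asks how the MAPK feedback genes stood after IL-10, since the study takes up MAPK signaling among the pathways of cDNT given this cytokine.

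ERK, p38 and JNK are activated by phosphorylation of a threonine and a tyrosine, and dual-specificity phosphatases remove both phosphates. Dusp1, Dusp2, Dusp4 and Dusp5 encode inducible nuclear enzymes, Dusp6 a cytoplasmic enzyme selective for ERK, and Dusp10 and Dusp16 enzymes that act mainly on p38 and JNK. Sprouty and Spred proteins act further upstream and restrain the step from receptors through Ras to Raf. Many of these genes are switched on by the kinases that their products restrain, and T cell receptor signals induce several of them, which makes their mRNA a common readout of MAPK activity.

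Total counts per library lay between 21619420 and 23967088, at which 3 counts equal 0.122 to 0.146 CPM (counts scaled by library size). The members held between 96 and 10852 counts per library, so that none was near that floor, which covers counting error only. All 7 T cell markers were detected, with summed levels of 1570 to 1960 CPM W/O IL-10 and 1960 to 2080 W/ IL-10. Cd4 had 8 to 38 counts per library, whereas Cd8a had 2316 to 3786, so that Cd8a mRNA was present in cells labelled double negative. The 4 B cell markers summed to 55.6 to 136 CPM W/O IL-10 and 51.5 to 93.8 W/ IL-10, and the 6 macrophage markers to 26.7 to 34.7 and 31.1 to 34.4 CPM. Of the 8 dendritic cell markers (57.3 to 71.6 and 66.8 to 75.4 CPM), Itgax passed the test, with higher values after IL-10. Xcr1 was also higher in every IL-10 library, whereas Cd83 and Zbtb46 were lower in every IL-10 library, all short of the threshold. Mean CPM was 32.1 W/O and 16.9 W/ IL-10 for Cd83 (adjusted p = 0.084, edgeR), and 6.69 and 4.93 for Zbtb46. The sum of these markers thus hides values on opposite sides. Cd8b1 of the 3 coreceptor genes (130 to 165 and 198 to 233 CPM) also passed and was higher. Ncr1 of the 3 NK cell markers (545 to 574 and 383 to 413 CPM) passed and was lower. Most of that NK sum was Eomes, at 498 to 539 CPM in the controls and 352 to 383 CPM after IL-10. Eomes was lower in every IL-10 library but did not reach a 1.5-fold change. Ncr1 itself had 5.45 to 8.04 CPM in the controls and 2.53 to 3.79 CPM after IL-10, and Klrb1c had overlapping groups. The 3 red cell markers summed to at most 3.39 CPM. The part of other cells in the values below was not tested, and in such bulk samples fewer cells of a type and less RNA per cell cannot be told apart. W/O IL-10 replicate 1 stood apart by base composition, with a median deviation of -0.64 on the log2 scale over the 693 tested genes of up to 40% GC, and the members have 41.5% to 57.0% GC. Over the same 693 genes W/ IL-10 replicate 1 deviated the other way, by 0.31. Above 56% GC, where Dusp2, Dusp5 and Spry1 lie, the medians were 0.099 in W/O IL-10 replicate 1 and -0.105 in W/ IL-10 replicate 1.

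RefSeq promoter windows (build GRCm38.p6) were found for 9 of the 10 genes, and Dusp4 had no entry. The 250 bases before the start site had 56.4% to 70.8% GC in these 9 genes, against a median of 52.4% over all 32851 windows. Both strands were searched for the cyclic AMP response element TGACGTCA and its shorter form TGACG (which lies within it), the AP-1 letters TGANTCA, the CArG box bound by serum response factor, the STAT letters TTCNNNGAA and the ETS letters CCGGAA. The 3 windows that held a match to any of these are shown. Capitals mark the matches, and bases that GENCODE places in an exon of the same gene were left out.
Dusp1 (chr17:26508520-26508722, minus strand): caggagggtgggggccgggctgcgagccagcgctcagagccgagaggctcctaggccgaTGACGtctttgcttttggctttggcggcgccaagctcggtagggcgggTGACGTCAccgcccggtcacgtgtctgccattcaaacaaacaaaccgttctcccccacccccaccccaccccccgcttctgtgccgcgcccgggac
Dusp5 (chr19:53528895-53529108, plus strand): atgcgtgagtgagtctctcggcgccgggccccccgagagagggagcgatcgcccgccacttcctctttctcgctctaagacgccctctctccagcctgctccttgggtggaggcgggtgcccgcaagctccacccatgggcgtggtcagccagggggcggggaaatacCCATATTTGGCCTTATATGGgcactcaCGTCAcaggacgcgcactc
Dusp16 (chr6:134792629-134792878, minus strand): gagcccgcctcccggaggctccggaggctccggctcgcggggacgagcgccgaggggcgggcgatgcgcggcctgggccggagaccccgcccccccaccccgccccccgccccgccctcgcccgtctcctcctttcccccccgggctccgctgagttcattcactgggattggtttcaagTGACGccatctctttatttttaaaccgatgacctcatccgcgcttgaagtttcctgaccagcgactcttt
The Dusp1 window held TGACGTCA, present in 1.55% of all windows. TGACG was found in the windows of Dusp1, Dusp5 and Dusp16 and in 17.8% of all windows. Dusp5 held 2 adjoining CArG boxes from -82 to -63 relative to the RefSeq start, a motif found in 1.47% of all windows. The AP-1, STAT and ETS letters were in none of the 9 windows, and in 6.75%, 7.02% and 12% of all windows. A match describes letters in the window and does not show binding.

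To compare genes with each other, CPM was divided by the exon length of each gene in kilobases. Dusp5 had by far the highest level, 176 ± 16.1 CPM per kb W/O IL-10, compared with 166 ± 21.3 W/ IL-10 (SD, n = 3), and its mean CPM exceeded that of 97.8% of the tested genes. Dusp2 followed with 90.3 ± 4.90 and 77.2 ± 1.79 CPM per kb (SD, n = 3). These 2 nuclear phosphatase genes were separate in level from each other and from the other members in both groups. W/O IL-10, Dusp6 (31.8 ± 3.33 CPM per kb) and Spry2 (29.8 ± 3.07) came next with overlapping ranges (SD, n = 3). W/ IL-10 the same genes stood in the opposite order, Spry2 at 35.6 ± 0.83 CPM per kb before Dusp6 at 33.4 ± 2.46, again with overlap (SD, n = 3). Dusp4 and Dusp10 were separate from their neighbours, at 19.6 ± 0.775 and 11.7 ± 0.329 CPM per kb W/O IL-10 (SD, n = 3). At the lower end Spred1 (5.11 ± 1.68) overlapped Dusp1 (3.61 ± 0.309), and Spry1 (2.40 ± 0.254) overlapped Dusp16 (2.34 ± 0.161 CPM per kb, W/O IL-10, SD, n = 3). W/ IL-10, Dusp16 (2.29 ± 0.117) and Spry1 (1.66 ± 0.251 CPM per kb, SD, n = 3) no longer overlapped, and neither did Spred1 and Dusp1. The control overlap of Spred1 with Dusp1 rested on W/O IL-10 replicate 1, where Spred1 had 3.21 CPM per kb, against 6.35 and 5.78 in replicates 2 and 3. W/ IL-10 the lowest Spred1 value (4.72) was only just above the highest Dusp1 value (4.55 CPM per kb). A change of these orders with IL-10 was not tested.

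**Figure D1:**
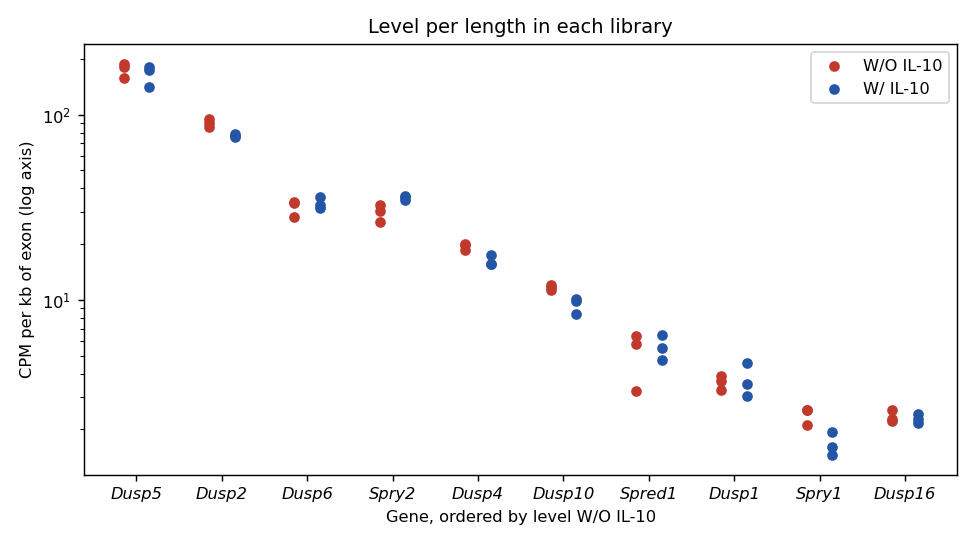
Level of the 10 genes in CPM per kb of exon on a log axis, 1 point per library, red W/O IL-10 and blue W/ IL-10, with genes ordered by their mean W/O IL-10. Dusp5 (176 CPM per kb W/O IL-10) and Dusp2 (90.3) lie above the other genes in both groups, and the order of the genes is otherwise similar in the 2 groups, with Dusp6 and Spry2 and then Spry1 and Dusp16 changing places.

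None of the 10 genes passed the test for a difference after IL-10. The quasi-likelihood test of edgeR, with Benjamini-Hochberg adjustment over 14916 genes and a required fold change of 1.5, called 1.45% of all tested genes (0.778% higher and 0.677% lower W/ IL-10) and 0 members. The adjusted p-values of the members lay between 0.157 and 0.952 (edgeR), and 0 members had an adjusted p under 0.05 at any fold change, against 2.19% of all tested genes. DESeq2 and limma-voom also called 0 members. At an unadjusted p under 0.05, edgeR, DESeq2 and limma-voom each counted 5 members, by edgeR 4 lower and 1 higher W/ IL-10. The same count took in 14.7% of all tested genes by edgeR (7.17% lower, 7.58% higher). In the 5 members counted by edgeR the groups did not overlap, which was so in 22.6% of all tested genes (11.2% lower, 11.3% higher). These shares are descriptions and carry no test. After a correction for GC and length, edgeR counted 4 members at an unadjusted p under 0.05, with Dusp2 no longer among them. The share over all tested genes was taken only for edgeR without this correction. The counts under DESeq2, limma-voom and the correction therefore have no share beside them. Dusp2, Dusp4, Dusp10 and Spry1 were lower in every W/ IL-10 library, and Spry2 was higher in every W/ IL-10 library. The median log2 ratio of W/ to W/O IL-10 over the members was -0.06, beside 0.006 over all tested genes. Replicates are separate samples by their labels, with no statement on separate cultures or animals, and p-values measure only the spread between these libraries.

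Among the inducible nuclear phosphatases, Dusp2 and Dusp4 had lower values W/ IL-10 without overlap, and Dusp1 and Dusp5 did not separate the groups. Dusp2 (ENSMUSG00000027368, chromosome 2 of GRCm38, 127336159 to 127338376), which encodes an enzyme typical of activated lymphocytes, had 191, 171 and 181 CPM W/O IL-10 (replicates 1, 2 and 3, in that order throughout) and 154, 159 and 152 CPM after IL-10. The means were 181 ± 9.81 and 155 ± 3.58 CPM (SD, n = 3), and the highest W/ IL-10 library stayed below the lowest W/O IL-10 library. The log2 ratio of W/ to W/O IL-10 (log2 FC) was -0.23 (standard error 0.07, 95% interval -0.39 to -0.06, adjusted p = 0.178 from edgeR). The exons of Dusp2 have 57.0% GC, the highest of the members, and correcting for GC and length moved its log2 FC to -0.13 (adjusted p = 0.353, edgeR).

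Dusp4 (ENSMUSG00000031530, chromosome 8, 34807297 to 34819894), a nuclear phosphatase of ERK and JNK, had the smallest p of the members. Its values were 51.2, 55.2 and 54.6 CPM W/O IL-10, against 42.9, 48.1 and 43.0 CPM W/ IL-10. All W/ IL-10 libraries lay below all W/O IL-10 libraries, with the closest pair 48.1 and 51.2 CPM. The log2 FC was -0.27 (standard error 0.08, 95% interval -0.45 to -0.08, adjusted p = 0.157, edgeR). Dropping single libraries gave -0.32 to -0.24, and the value was -0.18 after the GC and length correction (adjusted p = 0.284, edgeR).

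Dusp5 (ENSMUSG00000034765, chromosome 19, 53529109 to 53542431), an ERK-specific nuclear phosphatase and the member with the paired CArG boxes shown above, had 390, 447 and 467 CPM W/O IL-10, against 351, 449 and 433 CPM W/ IL-10. Replicate 1 was the lowest library of each group, and the groups overlapped. The log2 FC of -0.08 (95% interval -0.34 to 0.18, adjusted p = 0.791, edgeR) became 0.02 without W/ IL-10 replicate 1 and 0.003 after the GC and length correction. The opposite-strand gene AC137853.2 covers 22.1% of the exon bases of Dusp5, and whether counting used strand is not given in the sources used here.

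Dusp1 (ENSMUSG00000024190, chromosome 17, 26505590 to 26562128), an early-response phosphatase of p38 and JNK whose window holds TGACGTCA, had 12.9, 10.9 and 12.1 CPM W/O IL-10, against 10, 15.1 and 11.6 CPM W/ IL-10. Both the lowest and the highest value were from W/ IL-10 libraries. Its log2 FC was 0.03 (95% interval -0.34 to 0.40, adjusted p = 0.952, edgeR). Without W/ IL-10 replicate 2, the highest library, the value was -0.15, and without W/O IL-10 replicate 2, the lowest control, it was -0.04. The opposite-strand gene Ergic1 covers 0.3% of its exon bases.

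Dusp6 (ENSMUSG00000019960, chromosome 10, 99263231 to 99267489), the cytoplasmic ERK phosphatase, did not separate the groups. It had 87.5, 105 and 106 CPM W/O IL-10, against 98.0, 102 and 113 CPM W/ IL-10. Only W/O IL-10 replicate 1 lay below every W/ IL-10 library. The log2 FC was 0.07 (95% interval -0.14 to 0.29, adjusted p = 0.777, edgeR), and -0.02 without W/O IL-10 replicate 1.

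The phosphatases of p38 and JNK differed from each other in whether the groups overlapped. Dusp10 (ENSMUSG00000039384, chromosome 1, 184013302 to 184075636), known to restrain JNK in T cells, had 35.7, 36.4 and 34.4 CPM W/O IL-10, against 30.0, 30.7 and 25.6 CPM W/ IL-10. The W/ IL-10 libraries were all below the control libraries. Its log2 FC was -0.30 (standard error 0.10, 95% interval -0.52 to -0.08, adjusted p = 0.177, edgeR). With 49.3% GC it kept nearly the same value, -0.29, after the GC and length correction, where it had the smallest adjusted p of the members (0.102, edgeR). Dusp16 (ENSMUSG00000030203, chromosome 6, 134715468 to 134792625), another phosphatase of JNK and p38, had 17.8, 19.7 and 17.3 CPM W/O IL-10, against 16.9, 18.8 and 17.8 CPM W/ IL-10. These values were interleaved, and the log2 FC was -0.04 (95% interval -0.27 to 0.20, adjusted p = 0.909, edgeR), turning to 0.02 without W/O IL-10 replicate 2 and to 0.0003 without W/ IL-10 replicate 1. The difference between Dusp10 and Dusp16 was not tested.

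**Figure D2:**
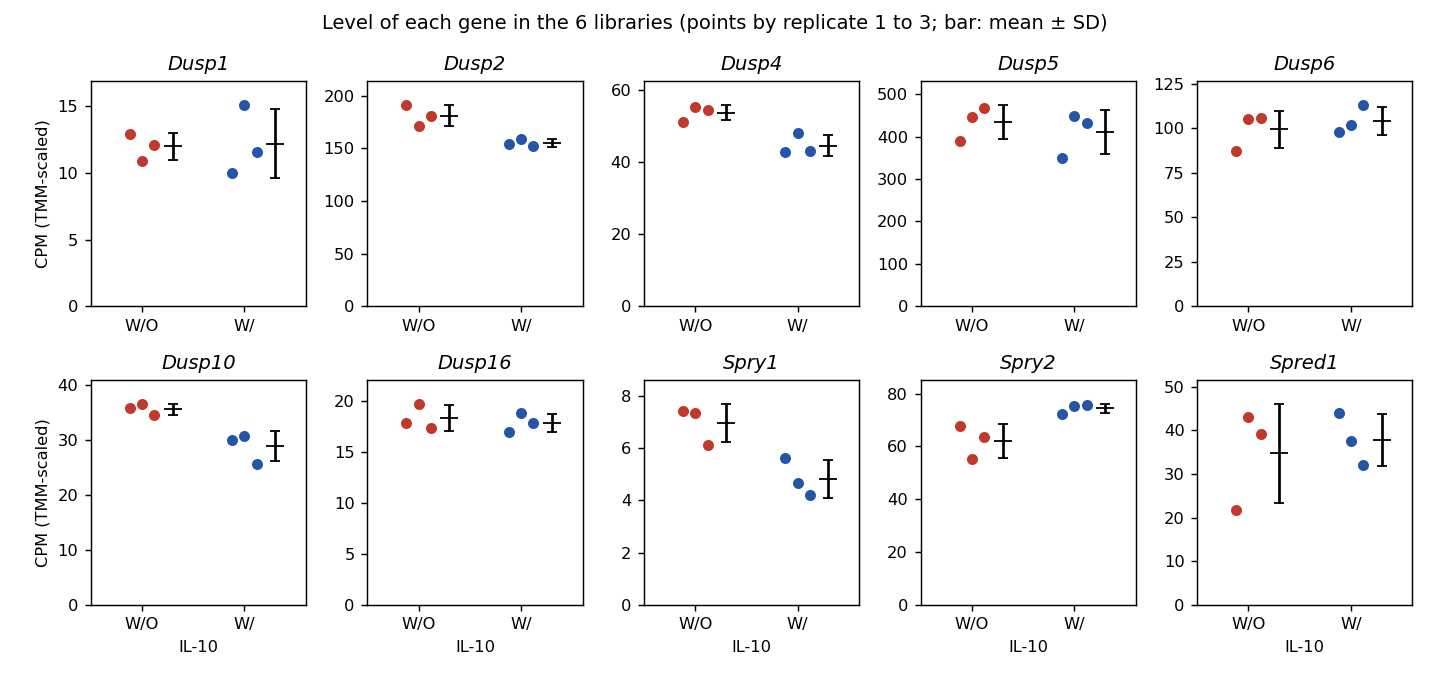
TMM-scaled CPM of each gene in the 3 W/O IL-10 (red) and 3 W/ IL-10 (blue) libraries, with points from left to right for replicates 1, 2 and 3 and a black bar for the mean ± SD (n = 3), every axis starting at 0. The blue points lie wholly below the red ones for Dusp2, Dusp4, Dusp10 and Spry1 and wholly above them for Spry2, and overlap them for the other 5 genes.

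The Sprouty genes had values on opposite sides. Spry1 (ENSMUSG00000037211, chromosome 3, 37639947 to 37644598), an inhibitor of Ras and ERK signals that T cell receptor engagement induces, had 7.42, 7.35 and 6.11 CPM W/O IL-10, against 5.63, 4.66 and 4.2 CPM W/ IL-10, from 96 to 182 counts per library. The groups did not overlap, and the W/ IL-10 level was 0.693 of the control level. This was the largest difference among the members by size, with a log2 FC of -0.53 (standard error 0.17, 95% interval -0.92 to -0.14, adjusted p = 0.190, edgeR). It ranged from -0.65 to -0.44 with each library left out and was -0.44 after the GC and length correction (56.3% GC). The opposite-strand gene Gm42922 covers 24.4% of the exon bases of Spry1 with at most 2 counts per library.

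Spry2 (ENSMUSG00000022114, chromosome 14, 105891947 to 105896819), which binds the Grb2 adaptor and the ubiquitin ligase Cbl, had 67.8, 55.2 and 63.4 CPM W/O IL-10, against 72.4, 75.3 and 75.5 CPM W/ IL-10. The W/ IL-10 libraries were closely grouped and all above the controls. The log2 FC was 0.26 (standard error 0.09, 95% interval 0.06 to 0.46, adjusted p = 0.202, edgeR). Without W/O IL-10 replicate 1 it was 0.32 with an adjusted p of 0.0624 (edgeR), the smallest adjusted p of any member under the 13 alternatives, and without W/O IL-10 replicate 2 it was 0.18 (edgeR).

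Spred1 (ENSMUSG00000027351, chromosome 2, 117121374 to 117182279), which recruits the Ras inhibitor neurofibromin, had 21.7, 43.1 and 39.2 CPM W/O IL-10, against 43.9, 37.5 and 32.0 CPM W/ IL-10. W/O IL-10 replicate 1 was the lowest of all libraries and set the wide spread of the control group. Spred1 has the lowest GC content of the members (41.5%). Over the 2102 tested genes above 40% and up to 44% GC, that library had a median deviation of -0.234 on the log2 scale. This was the most negative of the 6 libraries, and weaker than its -0.64 in genes of up to 40% GC. The part of base composition in the Spred1 value was not tested. The log2 FC was 0.13 (95% interval -0.40 to 0.65, adjusted p = 0.846, edgeR), -0.13 without that library, and -0.02 after the GC and length correction.

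The intervals show the range of change that these libraries allow for each gene. In 8 of the 10 genes the 95% interval of the log2 FC lay inside a 1.5-fold change in either direction. The interval of Spry1 reached down to a 0.527-fold level, and that of Spred1 up to 1.57-fold. These intervals are not adjusted for the number of genes.

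**Figure D3:**
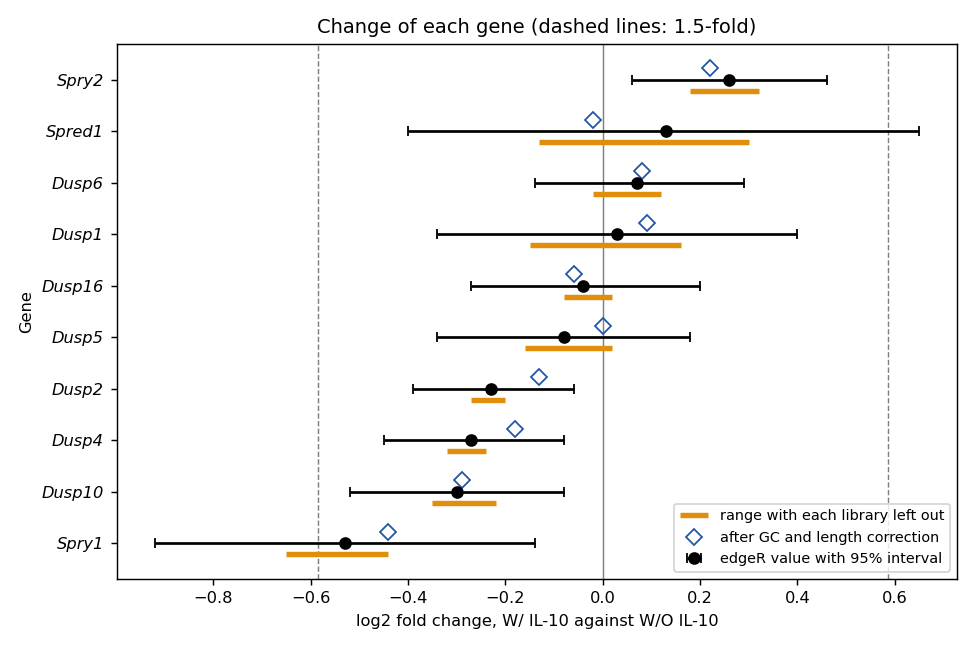
Log2 FC W/ IL-10 against W/O IL-10 for each gene, with the edgeR value and its 95% interval (black), the range when single libraries were dropped (orange) and the value after the GC and length correction (blue diamonds), and dashed lines at a 1.5-fold change. Only the intervals of Spry1 and Spred1 cross a dashed line, and the orange bars of Dusp1, Dusp5, Dusp6, Dusp16 and Spred1 cross 0.

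The remaining MAPK phosphatase, Sprouty and Spred genes also stayed short of the threshold. Of 7 such genes, 6 were tested and 0 passed the threshold (edgeR), none with an unadjusted p under 0.05. Spry4 had 15.8, 17.6 and 16.4 CPM W/O IL-10, against 15.3, 13.6 and 13.1 CPM W/ IL-10, without overlap (log2 FC -0.24, adjusted p = 0.353, edgeR). Dusp8, at 0.266 to 0.868 CPM, was also lower in every W/ IL-10 library (log2 FC -0.76, standard error 0.42, adjusted p = 0.454, edgeR). Of 12 atypical dual-specificity phosphatase genes tested, most of which lack the MAPK-docking domain, 0 passed and none had an unadjusted p under 0.05 (edgeR). The smallest p in that list belonged to Styxl1 (log2 FC 0.49, adjusted p = 0.658) and Dusp12 (-0.22, adjusted p = 0.671, edgeR), both with overlapping groups. Dusp26, Ptprr and Mapk13 were too low to be tested, and Spry3 was not analysed here.

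Of 7 tested phosphatase genes of other families, 1 passed the threshold, and 2 had an unadjusted p under 0.05 (edgeR). Ptpn5, which encodes a tyrosine phosphatase acting on ERK and p38, was upregulated, with 7.38, 8.22 and 6.89 CPM W/O IL-10, against 15.5, 18.3 and 18.6 CPM W/ IL-10. The lowest W/ IL-10 library was well above the highest control, and the log2 FC was 1.22 (standard error 0.13, adjusted p = 0.00383, edgeR). Ptpn5 was called under all 13 alternatives. In the same list Ptpn7, the ERK phosphatase of lymphocytes, had 329 ± 13.7 CPM W/O IL-10, compared with 277 ± 3.53 W/ IL-10 (SD, n = 3) without overlap (log2 FC -0.25, adjusted p = 0.132, edgeR). With DESeq2 the adjusted p of Ptpn7 was 0.0484 at a log2 FC of -0.25, short of 1.5-fold. Its adjusted p was over 0.05 under the other alternatives. Ppp2ca, a catalytic subunit of protein phosphatase 2A, had a log2 FC of 0.16 (adjusted p = 0.396, edgeR).

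The kinases and Ras regulators that these inhibitors act on mostly did not pass. Of 16 genes from Lat through Ras to ERK, 0 passed, and 3 had an unadjusted p under 0.05 (edgeR). Nras, which encodes a Ras GTPase, had 148, 149 and 153 CPM W/O IL-10, against 195, 170 and 174 CPM W/ IL-10 (log2 FC 0.26, adjusted p = 0.154, edgeR), without overlap. Of 7 Ras GTPase activator and Dok adaptor genes 0 passed and 1 had an unadjusted p under 0.05 (edgeR). The smallest p there belonged to Rasa3, with 184 ± 13.9 and 229 ± 19.2 CPM (SD, n = 3, log2 FC 0.32, adjusted p = 0.130), and Rasa1 (0.38, adjusted p = 0.368, edgeR). The log2 FC of Rasa1 was 0.07 after the GC and length correction and 0.17 without W/O IL-10 replicate 1. With no filter on low counts it was 0.37 (adjusted p = 0.00945, edgeR). Rasa3 had 0.38 (adjusted p = 0.0473) with the correction and 0.39 (adjusted p = 0.00517) with the block added (edgeR). With no filter Rasa3 had 0.31 (adjusted p = 0.0477, edgeR). All these values were short of 1.5-fold. Of 9 p38 cascade genes 0 passed and 2 had an unadjusted p under 0.05, namely Map3k5 (log2 FC 0.25, adjusted p = 0.177) and Mapk12 (-0.72, adjusted p = 0.180, edgeR). Map3k5 had an adjusted p of 0.0373 (log2 FC 0.29, edgeR) with the GC and length correction plus the replicate block. Under the other alternatives its adjusted p was over 0.05. Mapk12 was called with no filter on low counts (-0.73, adjusted p = 0.00267) and with the GC and length correction plus the replicate block (-0.63, adjusted p = 0.0255, edgeR).

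In the JNK cascade 1 of 9 genes passed, and 1 had an unadjusted p under 0.05 (edgeR). Mapk10, the isoform best known from neurons, was downregulated, with 12.7, 9.17 and 7.40 CPM W/O IL-10, against 4.76, 5.37 and 4.29 CPM W/ IL-10. The groups did not overlap, with the widest spread among the controls. Its log2 FC of -1.02 (standard error 0.21, adjusted p = 0.0490, edgeR) was just past the threshold. The adjusted p was 0.117 without W/O IL-10 replicate 2, 0.180, 0.120 and 0.230 without W/ IL-10 replicates 1, 2 and 3, and 0.0503 with the replicate block (edgeR). With limma-voom the log2 FC was -0.99 and the adjusted p 0.074, so that the call was lost there too. Map2k7 (log2 FC -0.10, adjusted p = 0.617) and Atf2 (0.15, adjusted p = 0.624, edgeR) had the next smallest p, and Atf2 was at -0.04 after the GC and length correction.

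Of 17 early genes induced through ERK, 2 passed in opposite directions, and 3 had an adjusted p under 0.05 (edgeR). An unadjusted p under 0.05 was found for 7 of the 17 (edgeR), beside 14.7% of all tested genes. Without overlap of the groups, 6 were higher and 3 lower W/ IL-10, beside 11.3% and 11.2% of all tested genes. Junb, an AP-1 subunit, was upregulated, with 179, 192 and 185 CPM W/O IL-10, against 243, 316 and 294 CPM W/ IL-10 (log2 FC 0.62, standard error 0.10, adjusted p = 0.0236, edgeR). Etv5, an ETS factor that is switched on by ERK much as the Sprouty genes are, was downregulated, with 15.3, 15.5 and 16.4 CPM W/O IL-10, against 10.2, 10.9 and 10.1 CPM W/ IL-10. Neither gene had overlapping groups, and the log2 FC of Etv5 was -0.60 (standard error 0.11, adjusted p = 0.0290, edgeR). Nr4a1, a nuclear receptor gene induced by T cell receptor signals, had an adjusted p of 0.0306 with a log2 FC of -0.57, just short of 1.5-fold, and Fos had a log2 FC of 0.88 (adjusted p = 0.102, edgeR). Nr4a1 was called with upper-quartile factors (-0.59, adjusted p = 0.0261) and without W/ IL-10 replicate 2 (-0.69, adjusted p = 0.0215, edgeR), and its adjusted p was 0.109 and 0.0509 without W/O IL-10 replicates 2 and 3 and 0.130 and 0.184 without W/ IL-10 replicates 1 and 3. Fos was called with the replicate block (0.88, adjusted p = 0.0434, edgeR), with the block and the GC and length correction (0.95, adjusted p = 0.0059, edgeR), with DESeq2 (adjusted p = 0.0147) and with no filter on low counts (adjusted p = 0.00104, edgeR). The call of Junb was lost without W/O IL-10 replicate 1 (log2 FC 0.58, adjusted p = 0.0106), without W/O IL-10 replicate 2 or 3 (adjusted p = 0.0935 and 0.0689) and without W/ IL-10 replicate 2 or 3 (0.0764 and 0.136, edgeR). The call of Etv5 was lost without W/O IL-10 replicate 2 or 3 (0.106 and 0.0822), without W/ IL-10 replicate 1, 2 or 3 (0.114, 0.0774 and 0.161), with the replicate block (0.0571) and, by size alone, after the GC and length correction (log2 FC -0.55, adjusted p = 0.0221, edgeR, and -0.55 with the block added).

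Over all 8 lists, 4 of 83 tested genes passed the threshold (4.82%, beside 1.45% of all tested genes), and the median log2 FC was 0.02. These counts are descriptions, and no test of the lists was made. The lists were chosen with earlier results of these data known, so the share is not independent of the data.

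**Figure D4:**
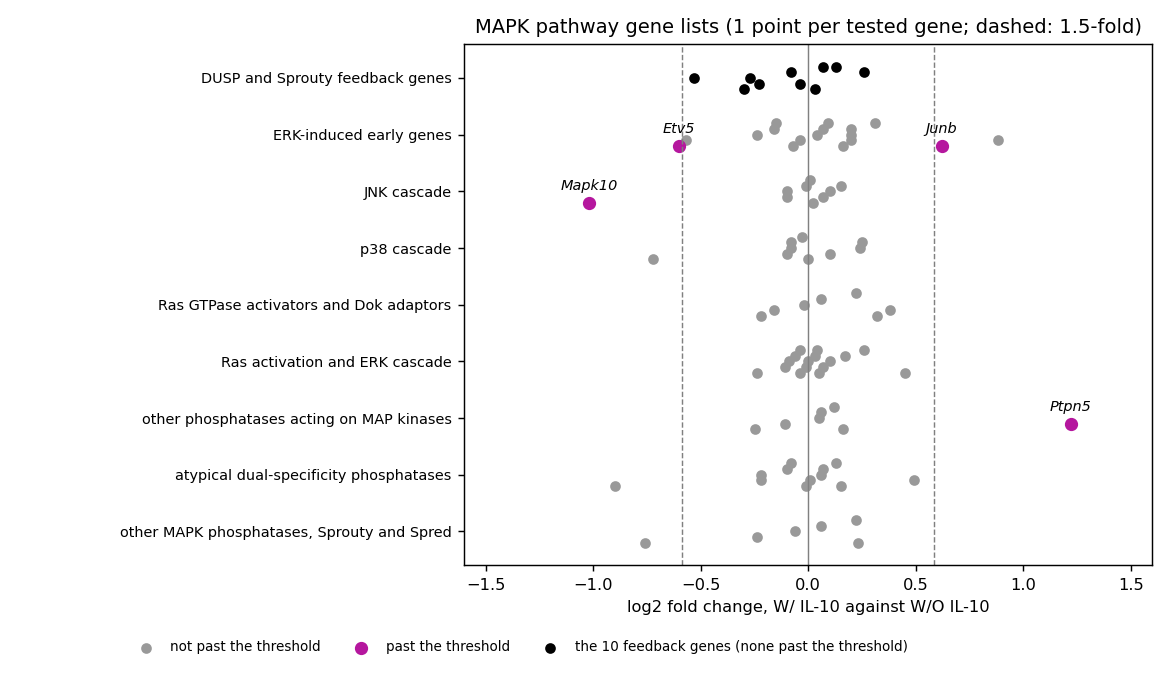
Log2 FC W/ IL-10 against W/O IL-10 of every tested gene in the 8 MAPK pathway lists and, in the top row in black, of the 10 feedback genes, with genes past the threshold in purple and dashed lines at a 1.5-fold change. Ptpn5 and Junb are the named points on the right and Mapk10 and Etv5 those on the left, and all 10 feedback genes lie between the dashed lines.

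The genes whose log2 CPM followed Dusp4 most closely over the 6 libraries were Ntn1 (Pearson r = 0.996), A630014C17Rik (0.994) and Cmpk2 (0.991). These are descriptions of 6 points that share 2 groups. Ntn1 had 33 to 51 counts W/O IL-10 and 6 to 16 W/ IL-10 (log2 FC -1.97, adjusted p = 0.0474, edgeR), Cmpk2 had 11.7 ± 0.635 and 9.20 ± 0.986 CPM (SD, n = 3), and A630014C17Rik had at most 14 counts per library.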

How the data were processed

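RNA was made into libraries with a TruSeq kit per the labels and a NEBNext kit per the methods of the study. The submitters' processing notes name HISAT2, HTSeq and the build GRCm38, whereas the methods of the study name TopHat, Cufflinks and UCSC annotation. Versions and the strand setting are not given in the sources used here. The authors deposited 1 table of raw counts per Ensembl gene for 6 libraries, not normalized, of which every value column was used and no pair of libraries was identical (0 pairs). TMM factors and the quasi-likelihood test came from edgeR 4.0.16 under R 4.3.3, without a block, for 14916 genes that reached 10 counts in 3 or more libraries. A gene was called at a fold change of at least 1.5 and a Benjamini-Hochberg adjusted p under 0.05 over all tested genes. CPM uses TMM-scaled totals. A standard error is the size of the log2 fold change divided by the square root of F.

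The GC and length correction fitted splines (5 degrees of freedom each) per library and entered as offsets. Alternatives were DESeq2 1.42.0, upper-quartile factors, no filter on low counts, limma-voom (limma 3.58.1), the replicate number as a block, the correction with and without the block, and each library left out. Symbols, coordinates and exon lengths are from GENCODE M21 (GRCm38), which held 29332 of the 29393 identifiers. The steps were tested on simulated counts. With 200 changed genes drawn from all levels, edgeR recovered 44.5% at 1.5-fold and 72.5% at 2-fold (adjusted p under 0.05). The members and gene lists were chosen with earlier results of these data known. Named genes are the members, the list genes past the threshold and the next 2 by p in each list, and the 3 genes most like the member of smallest p. One result under this rule is not reported here. Plots used Python 3.11.15 and matplotlib 3.10.9.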

Additional observations from a re-analysis of the deposited data

How the results depend on the processing

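The number of members past the threshold was 0 under all 13 alternatives, and the smallest adjusted p of any member was 0.0624. Of 130 member values under the alternatives, 119 had the direction reported above. Dusp2, Dusp4, Dusp10, Spry1 and Spry2 kept their direction under every alternative run, and the other 5 did not. Dusp5 was at 0.003 and Spred1 at -0.02 after the GC and length correction, and at 0.01 and -0.01 with that correction and the replicate block. When single libraries were dropped, Dusp1 ranged from -0.15 to 0.16, Dusp5 from -0.16 to 0.02, Dusp6 from -0.02 to 0.12, Dusp16 from -0.08 to 0.02 and Spred1 from -0.13 to 0.30. Atf2 was at -0.04 under the correction with and without the block. The cause of these turns was not tested.

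Over all tested genes, 217 were called, 359 with DESeq2, 639 without a filter, 354 with the correction and the replicate block, and 35 to 254 with 1 library left out. The list genes called, 4 as reported, ranged from 1 to 3 with 1 library left out, and numbered 3 with limma-voom, the replicate block or the correction, 5 with DESeq2, upper-quartile factors or the correction and the block, and 6 without a filter. The replicate block gave 196 calls in all and 0 among members (smallest adjusted p of a member 0.178, edgeR). Deviations of same-numbered libraries correlated by 0.0524, -0.0573 and 0.114, and those of other pairs by -0.106 to 0.0409 (not corrected for GC). These values do not settle whether the numbers pair the samples, and the main fit had no block. Groups of 3 limit the precision of every value.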
